A study of Sus scrofa with 34 samples.

Results

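A set of 9 genes of nitrogen disposal and amino acid breakdown is described here in the liver and ileum of piglets. They are the 5 enzymes of the urea cycle (CPS1, OTC, ASS1, ASL and ARG1), the liver glutaminase GLS2, which supplies ammonia to the cycle, and 3 enzymes that start or carry the breakdown of aromatic amino acids (TAT, HPD and TDO2). They were chosen by symbol, and all 9 had 1 row each among the 25880 genes counted in both tissues. The crossbred weaned piglets were fed a basal diet (control), the basal diet with an essential oil-based phytogenic feed additive (PFA), a diet with heat-oxidized rapeseed oil (OO), or the oil diet with the additive (OO + PFA), and were sampled at day 28. Livers of 24 pigs were sequenced, 6 per diet, and the ileum of 5 control and 5 PFA pigs whose livers are also in the set. A pig is named below by a prefix and its number, with the prefixes C (control), P (PFA), OO (oil alone) and OP (oil with PFA).

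Pigs on the same diet shared 1 pen, which means that effects of pen and of diet cannot be told apart, and the p-values measure the spread between pigs of 1 pen. The oil displaced part of every other ingredient of the basal feed, protein sources and free amino acids included, and raised its calculated energy. Oxidation products, added fat and the lower protein share of the oil diets therefore cannot be told apart. The study left out 1 OO + PFA liver library for signs of RNA degradation, taken here as that of pig 77, which had the lowest share of uniquely mapped reads, and the liver tests used the other 23 libraries.

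The urea cycle turns ammonia, which is toxic, into urea for excretion. CPS1 and OTC act in the mitochondria and make citrulline. ASS1 and ASL convert citrulline to arginine in the cytosol, and ARG1 splits arginine into urea and ornithine. In mammals the whole cycle runs in hepatocytes, mostly those near the portal tract, whereas enterocytes use its first enzymes to make citrulline. TAT takes the amino group off tyrosine and is a classical target of glucocorticoids and glucagon, HPD follows it in tyrosine breakdown, and TDO2 opens the ring of tryptophan.

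The 23 liver libraries held 19839171 to 42446834 read pairs assigned to genes, and the 10 ileum libraries 18772230 to 24338165. Of 7 hepatocyte markers with an identifier, none was at 0 in any liver group, and their summed level was 98610 to 221400 CPM (counts scaled to library size) in liver against 1130 to 3845 in ileum. Nearly all of the ileum sum was APOA1 (1129 to 3844 CPM), an apolipoprotein that enterocytes also make. The other 6 reached at most 1.42 CPM in any ileum, with TTR and AHSG at 0 in both ileum groups and SERPINA1 in the PFA group. SERPINA1 was near the floor in liver too, at 0.643 to 3.78 CPM, so it tells little about the tissue here. The 6 enterocyte markers summed to 16250 to 25510 CPM in ileum and to 259 to 919 in liver, with SI at 0 in the control, OO and OO + PFA livers and FABP2 at 0 in the PFA livers. Among pigs, the dependence of a gene's level on its GC content ranged from -0.50 to 0.46 on the log2 scale per 10 percentage points of GC in the 23 livers. It lay from 0.01 to 0.46 in OO + PFA pigs and from -0.50 to 0.04 in PFA pigs.

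All 9 genes were expressed in every control liver. Levels of different genes can be compared only per length, as CPM per kilobase of annotated exon. On this scale HPD was highest at 531 ± 66.1 (SD, n = 6), above TDO2 at 382 ± 73.5 with no overlap between pigs. ASS1 followed at 321 ± 27.8, TAT at 215 ± 70.1, OTC at 204 ± 52.5 and CPS1 at 154 ± 39.1. ARG1 (87.9 ± 9.32) and ASL (86.1 ± 19.8) were close to each other, and GLS2 was lowest at 27.2 ± 4.37. From TDO2 down to ASL the ranges of neighbouring genes overlapped, so that part of the order is not resolved among 6 pigs, whereas GLS2 lay below every pig's ASL.

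Over the 23 livers TAT varied most, with a 7.91-fold range from 291 CPM in C-92 to 2300 CPM in OP-126, followed by ARG1 with a 5.02-fold range. HPD varied least, with a 1.98-fold range.

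**Figure D1:**
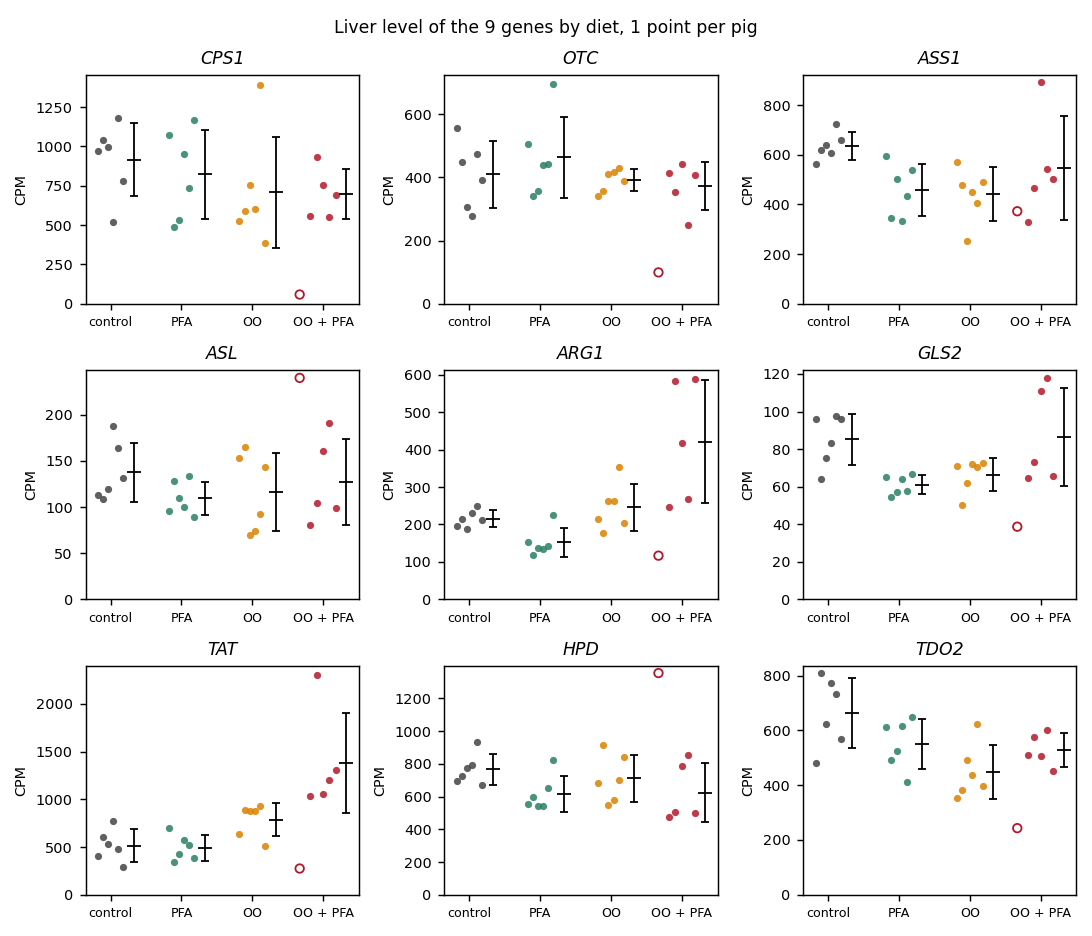
Level of each of the 9 genes in liver, as CPM with library sizes scaled by TMM (trimmed mean of M values), by diet. Each filled point is 1 pig, the bar and whiskers are the mean and SD, and the open circle is pig OP-77, which was not used in the tests. ARG1 and TAT were higher in all 5 OO + PFA pigs than in any PFA pig, whereas the other 7 genes overlapped between these diets.

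The first question was whether oxidized oil changed these genes in the liver. ARG1 and TAT were higher in OO + PFA than in PFA livers and over both oil diets together. For OO against control neither passed the test, and the difference between the pairs, the interaction, did not pass either (adjusted p = 0.136 for ARG1 and 0.276 for TAT). Across the 4 diets the edgeR quasi-likelihood test called these 2 of the 9 genes, ARG1 with an adjusted p of 0.00123 and TAT with 0.00099, where 3.66% of the 13831 genes tested were called. A gene was called where its Benjamini-Hochberg adjusted p over all genes tested did not exceed 0.05. In bulk tissue, more cells of a type and more RNA per cell cannot be told apart.

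ARG1 (ENSSSCG00000004195, Sscrofa11.1 chromosome 1, 32006035 to 32028983, minus strand) is the cytosolic liver arginase. In PFA livers its levels were 117, 134, 137.1, 144, 154 and 224 CPM, the last in P-95. In OO + PFA livers they were 247.5, 267, 418, 585 and 589 CPM, so the lowest OO + PFA pig lay above the highest PFA pig. Control livers held 188 to 250.2 CPM with a median of 214, and OO livers 176 to 354 CPM with a median of 238. The control and OO ranges overlapped, with 3 of 6 OO pigs above every control pig. OO + PFA exceeded PFA by 1.47 on the log2 scale (SE 0.22, 95% interval 1.02 to 1.93), a 2.78-fold difference with an adjusted p of 0.000505. OO exceeded control by 0.19 (SE 0.21, interval -0.24 to 0.62, adjusted p = 0.636), which did not pass the test.

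TAT (ENSSSCG00000002736, chromosome 6, 14571311 to 14583203, minus strand) was 342, 384.5, 422, 525, 571 and 698 CPM in PFA livers. It was 1036, 1059, 1204, 1309 and 2300 CPM in OO + PFA livers. All OO + PFA pigs were above every PFA pig, and also above every OO pig. Control livers held 291 to 776 CPM (median 509) and OO livers 509 to 931 CPM (median 875.5), with 4 of 6 OO pigs above the highest control pig. OO + PFA exceeded PFA by 1.49 on the log2 scale (SE 0.25, interval 0.98 to 2.01), which is 2.82-fold, with an adjusted p of 0.00165. OO exceeded control by 0.61 (SE 0.24, interval 0.12 to 1.09), and this missed the threshold at an adjusted p of 0.138.

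These were the 2 members of 9 called for OO + PFA against PFA, where 1.58% of all genes were called, 1.24% higher and 0.333% lower. Groups that did not overlap in CPM, as for ARG1 and TAT, were found for 6.49% of the genes tested in this comparison. With both oil diets set against both diets without oil, ARG1 was higher by 0.83 (SE 0.15, adjusted p = 0.00142) and TAT by 1.05 (SE 0.17, adjusted p = 0.000446), again 2 of 9 beside 11.8% of all genes. After a correction for the GC dependence of each library, which differed between these diets, OO + PFA exceeded PFA by 1.66 for ARG1 (SE 0.19, adjusted p = 1.32e-05) and by 1.60 for TAT (SE 0.24, adjusted p = 0.000357). Of the 11 oil-fed pigs, 7 for ARG1 and 9 for TAT exceeded every one of the 12 pigs fed no oil. The median change of the 9 genes was -0.05 on the log2 scale, beside 0.01 over all genes.

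The titles of the liver libraries come in 2 forms, PigLiv and PL. Among the PigLiv libraries OO + PFA exceeded PFA by 1.55 for ARG1 (SE 0.31, adjusted p = 0.0491) and by 1.35 for TAT (SE 0.30, adjusted p = 0.0923). Among the PL libraries, which hold 1 OO + PFA pig that is assumed to vary like the other groups, the differences were 1.27 (SE 0.42, adjusted p = 0.202) and 1.25 (SE 0.41, adjusted p = 0.204). Both genes differed in the same direction in either form, with 1 of these 4 values past the threshold.

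**Figure D2:**
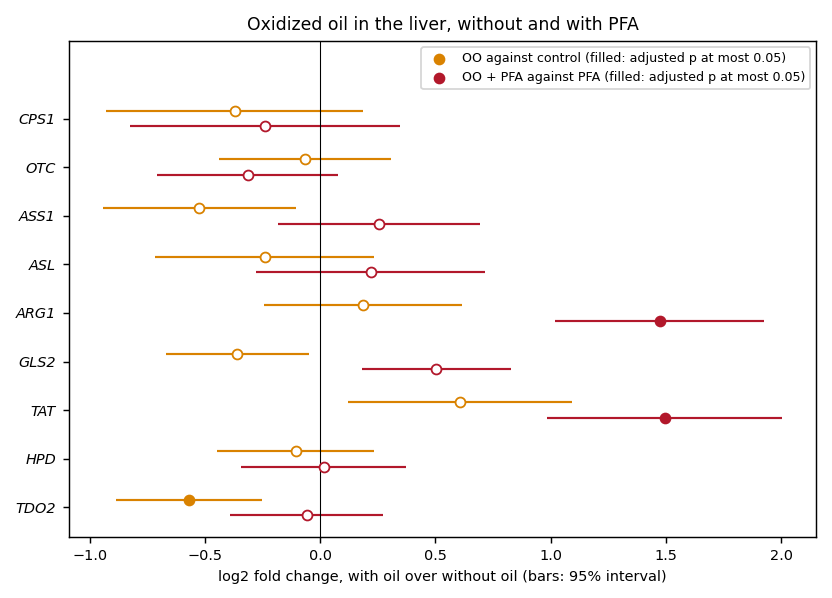
Log2 fold change of each gene in the liver for the oil, without PFA (OO against control, orange) and with PFA (OO + PFA against PFA, red), with 95% intervals from the edgeR fit of 23 libraries. Filled points passed the adjusted p threshold of 0.05: ARG1 at 1.47 and TAT at 1.49 with PFA, and TDO2 at -0.57 without it.

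PCK1 and G6PC1, enzymes of glucose synthesis among the 8 periportal hepatocyte markers, were also higher in OO + PFA than in PFA livers. PCK1 was 823 to 4072 CPM in OO + PFA and 164 to 412 CPM in PFA livers. G6PC1 was 556.5 to 3064 CPM and 119 to 414 CPM in the same diets. Neither overlapped, as was the case for 6.49% of the genes tested. In OO both means were below control, unlike those of ARG1 and TAT. PCK1 had a mean of 444 CPM in OO and 676 CPM in control livers, and G6PC1 280.5 and 475 CPM, with overlapping ranges. The 8 periportal markers together summed to 2513 to 8092 CPM in OO + PFA and 1439 to 1953 CPM in PFA livers, and to 1342 to 2037 CPM in OO and 1344 to 3679 CPM in control livers. The other 6 periportal markers overlapped, with sums of 883 to 986 CPM in OO + PFA and 929 to 1360 CPM in PFA livers. The 7 pericentral markers with an identifier also overlapped, at 2431 to 3212 CPM in OO + PFA and 2609 to 4027 CPM in PFA livers. They summed to 2381 to 3166 CPM in OO and 3309 to 4694 CPM in control livers, without overlap. Most of this sum was CYP2E1, at 2005 to 2902 CPM in OO and 3062 to 4377 CPM in control livers. Each of the other pericentral markers overlapped between OO and control. Groups without overlap were found for 2.24% of the genes tested for OO against control. None of either list was at 0 in any liver group. The part of such markers in the ARG1 and TAT values was not tested.

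Because ARG1 and TAT moved together, the sequence upstream of their annotated starts is shown, from the Sscrofa11.1 genome with RefSeq gene models. Each run is the 250 bases before the start, 5′ to 3′ on the gene's strand, and capitals mark matches on either strand to any of 6 short motifs. They were the promoter element CCAAT, the core promoter element TATAAA, the C/EBP factor motif TTNNGNAA, the glucocorticoid receptor core TGTTCT, the nuclear receptor core AGGTCA and the KLF factor motif CACCC. The TAT window is chr6:14583204-14583453, and the ARG1 windows are chr1:32028984-32029233 and, before a second annotated start inside the gene, chr1:32020569-32020818, all on the minus strand.
TAT: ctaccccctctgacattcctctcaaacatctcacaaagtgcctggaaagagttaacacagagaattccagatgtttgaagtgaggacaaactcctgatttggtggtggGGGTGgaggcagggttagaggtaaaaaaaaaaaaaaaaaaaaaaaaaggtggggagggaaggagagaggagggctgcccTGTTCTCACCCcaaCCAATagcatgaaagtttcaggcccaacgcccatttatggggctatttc
ARG1, outer start: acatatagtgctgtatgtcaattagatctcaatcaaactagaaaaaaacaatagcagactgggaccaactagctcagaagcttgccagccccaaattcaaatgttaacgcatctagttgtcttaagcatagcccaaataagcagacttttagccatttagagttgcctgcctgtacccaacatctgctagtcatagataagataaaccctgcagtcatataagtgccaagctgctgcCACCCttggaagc
ARG1, inner start: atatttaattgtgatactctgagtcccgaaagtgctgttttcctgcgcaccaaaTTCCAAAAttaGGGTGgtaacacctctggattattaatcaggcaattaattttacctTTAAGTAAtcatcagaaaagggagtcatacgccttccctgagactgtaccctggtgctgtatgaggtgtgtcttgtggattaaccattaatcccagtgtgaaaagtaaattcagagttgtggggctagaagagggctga
The TAT window held TGTTCT at -63 to -58, directly followed by CACCC at -57 to -53, a CCAAT at -49 to -45, and a second CACCC match starting at -142. The outer ARG1 window held a CACCC at -13 to -9. The inner one held matches to TTNNGNAA at -196 to -189 and -139 to -132 and to CACCC at -185 to -181. Among 13703 windows of this length, one for each gene with a RefSeq position, TGTTCT was present in 9.01%, TTNNGNAA in 28.8%, CCAAT in 31.7%, CACCC in 57.1%, AGGTCA in 11.3% and TATAAA in 7.94%. These matches describe the letters only.

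Over the 23 livers ARG1 and TAT were also each other's closest match among the 9 genes, with a Pearson r of 0.746 between their log2 CPM. This is a description: the livers share diets, and the OO + PFA pigs are high in both. Among all named genes TAT was most like SLC1A1 (r = 0.862) and LRATD2 (0.861), and ARG1 most like TP53INP2 (0.782) and FH (0.757), the fumarate hydratase that uses the fumarate released by ASL.

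**Figure D3:**
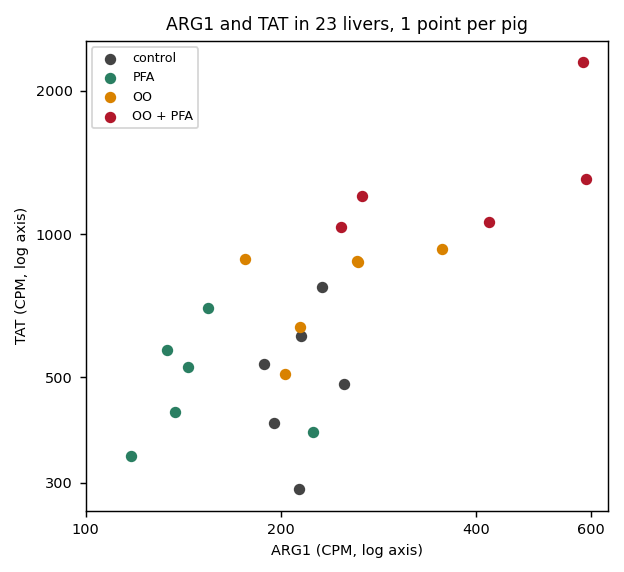
ARG1 against TAT in each of 23 livers, in CPM on log axes, coloured by diet. The 5 OO + PFA pigs lie above 1000 CPM of TAT, where no other pig does, and ARG1 in them runs from 247.5 to 589 CPM.

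TDO2 (ENSSSCG00000008868, chromosome 8, 44708722 to 44725954, plus strand) was the single gene of the 9 called for OO against control, beside 2.71% of all genes. Its levels were 479, 570.1, 622, 733, 772 and 808 CPM in control livers and 354, 381, 397, 438, 491 and 624 CPM in OO livers. OO pigs were mostly low, with 4 of 6 below the lowest control pig, but the groups overlapped through OO-97 and C-100. TDO2 was lower in OO by 0.57 on the log2 scale (-0.57, SE 0.15, interval -0.89 to -0.25), with an adjusted p of 0.0458. The call held in 5 of 8 other settings, among them DESeq2 (adjusted p = 0.00728) and the GC correction (0.0111), with a difference of -0.61 to -0.56 over the 8. It did not hold in a fit of these 2 diets alone (adjusted p = 0.12), with all 24 livers (0.107) or without a filter on low counts (0.0721). It was also lost on leaving out any one of C-71 (0.0561), C-80 (0.0902), C-85 (0.0986), C-110 (0.101), OO-88 (0.076), OO-99 (0.0856), OO-102 (0.108) or OO-130 (0.12), with a difference of -0.59 to -0.49. With PFA in both diets TDO2 differed by -0.06 (SE 0.16, adjusted p = 0.85), and over both oil diets by -0.31 (SE 0.11, adjusted p = 0.0666). OO against control was -0.61 (adjusted p = 0.22) among the PigLiv and -0.69 (adjusted p = 0.105) among the PL libraries.

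GLS2 (ENSSSCG00000000401, chromosome 5, 21806405 to 21820001, minus strand) passed the test in neither pair, and its differences had opposite signs. It was 63.9 to 97.4 CPM in control (median 89.5) and 50.4 to 72.6 CPM in OO livers (median 70.7), a difference of -0.36 (SE 0.15, adjusted p = 0.168). It was 54.6 to 66.6 CPM in PFA livers and 64.35, 65.5, 72.9, 111 and 118 CPM in OO + PFA livers, a difference of 0.50 (SE 0.16, adjusted p = 0.0965). The high OO + PFA values came from OP-137 and OP-79. The gene overlaps SPRYD4 and RBMS2 on the other strand, and since the strand setting of the counting was not stated, reads of these genes may be among its counts.

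The other 5 genes did not pass the test for the oil in either pair. CPS1 (chromosome 15, 113210038 to 113339086) had a mean of 915 ± 233 CPM in control, 823 ± 283 in PFA, 708 ± 355 in OO (SD, n = 6 each) and 698 ± 159 in OO + PFA livers (n = 5). The OO mean included OO-97 at 1390 CPM, beside 385 to 755 CPM in the other 5 pigs. OTC (chromosome X, 34322398 to 34391711) was 409.9 ± 105.4 CPM in control, 464 ± 129 in PFA, 392 ± 34.7 in OO and 373 ± 76.9 in OO + PFA livers. It overlaps RPGR on the opposite strand and a pseudogene on its own.

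ASS1 (chromosome 1, 270531434 to 270586364) was highest in control livers, at 635 ± 55 CPM, beside 458 ± 106 in PFA, 442 ± 107 in OO and 547 ± 209 in OO + PFA livers. OO lay 0.52 below control on the log2 scale (-0.52, SE 0.20, adjusted p = 0.138), and 5 of 6 OO pigs lay below the lowest control pig. ASL (chromosome 3, 16637481 to 16646869, with an antisense gene inside it) was 138 ± 31.6 CPM in control and 109 ± 18.1 in PFA livers. It was 116 ± 42.5 in OO and 127 ± 46.8 in OO + PFA livers. ASL has the highest exon GC content of the 9 genes (62.5%), and its log2 CPM followed the GC dependence of the libraries with a Pearson r of 0.693 over 23 livers, while CPS1 (43.8% GC) had -0.691. After a correction for GC content ASS1 (-0.71, adjusted p = 0.0387) and ASL (-0.52, adjusted p = 0.02) passed the test for OO against control. ASL also passed for both oil diets together (-0.44, adjusted p = 0.00504). For OO + PFA against PFA the correction changed the sign of both, ASS1 from 0.25 to -0.22 and ASL from 0.22 to -0.36. Neither passed the test in that pair. The ASS1 interaction was 0.78 without the correction and 0.49 with it (adjusted p = 0.428). HPD (chromosome 14, 30845608 to 30857658) was 765 ± 95.3 CPM in control, 617 ± 109 in PFA, 711 ± 144 in OO and 623 ± 180 in OO + PFA livers.

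The study also asked what the additive did alone and on top of the oil. For PFA against control edgeR called none of the 9 genes and none of the 13831 genes (0%), and DESeq2 also called none of the 9. All but OTC were lower in PFA livers, with a median difference of -0.31 on the log2 scale beside 0.03 over all genes. At an unadjusted p under 0.05 there were 3, GLS2 (-0.48, SE 0.15, adjusted p = 0.303), ARG1 (-0.51, SE 0.21, adjusted p = 0.41) and ASS1 (-0.47, SE 0.20, adjusted p = 0.42), where 11% of all genes were at this level. For ARG1, 5 of 6 PFA pigs were below the lowest control pig, and P-95 at 224 CPM was within the control range.

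For OO + PFA against OO edgeR again called none of the 9 and none of all genes (0%), as did DESeq2 for the 9. TAT was higher by 0.81 (SE 0.25, interval 0.31 to 1.32, adjusted p = 0.363) with groups that did not overlap, as was the case for 0.774% of all genes. ARG1 was higher by 0.78 (SE 0.22, interval 0.33 to 1.23, adjusted p = 0.316), and GLS2 by 0.38 (SE 0.16, adjusted p = 0.523). These 3 had an unadjusted p under 0.05, beside 8.5% of all genes. By title form, OO + PFA exceeded OO for TAT by 1.13 among the PigLiv and by 0.21 among the PL libraries. For ARG1 these differences were 0.91 and 0.62. The PL values rest on 1 OO + PFA pig. This comparison shares its OO + PFA pigs with the one against PFA, so the 2 are not independent.

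The interaction asks whether the oil difference was larger with the additive than without it. No gene of the 9 passed by edgeR, and no gene of all tested did (0%). ARG1 had an interaction of 1.29 on the log2 scale (SE 0.30, interval 0.66 to 1.91, adjusted p = 0.136), GLS2 0.86 (SE 0.22, adjusted p = 0.164) and TAT 0.89 (SE 0.34, adjusted p = 0.276). With ASS1 and TDO2 these were 5 of 9 at an unadjusted p under 0.05, beside 13.6% of all genes. DESeq2 called 2, ARG1 (1.28, adjusted p = 0.0191) and GLS2 (0.86, adjusted p = 0.034). The share of all genes that DESeq2 called for the interaction is not given here, so this count cannot be set beside it. The larger ARG1 and TAT difference in the OO + PFA pair did not pass the edgeR test as a difference between the pairs.

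To set the 9 genes among their neighbours, 91 other genes of amino acid breakdown and its control were listed, of which 83 had an identifier and 82 passed the filter in liver. Over both oil diets 18 of the 82 were called, 12 higher and 6 lower, beside 8.95% of all genes called higher and 2.83% lower. Their median was 0.03, beside 0.01 over all genes. Leaving out each pig in turn gave 13 to 26 calls. After the GC correction 20 were called, but 5 of the 18 were not among them (CA5A, QPRT, FTCD, CEBPA and CEBPB), with values given beside each gene.

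The mitochondrial arginase ARG2 had the lowest p of them. It was 4.21 to 11.3 CPM in control and 4.68 to 10.3 CPM in PFA livers, against 12.2 to 37.3 CPM in OO and 11.6 to 33.9 CPM in OO + PFA livers. All 11 oil-fed pigs were above the 12 others, which held for 0.21% of all genes. ARG2 was higher by 1.67 without PFA (SE 0.29, adjusted p = 0.00199) and by 1.70 with it (SE 0.30, adjusted p = 0.00364). Its interaction of oil and additive was 0.03 (SE 0.41, interval -0.82 to 0.89, adjusted p = 0.984). CA5A, the mitochondrial carbonic anhydrase that gives CPS1 its bicarbonate, was higher by 0.53 over both oil diets (SE 0.17, adjusted p = 0.0396). It lost the call with the GC correction (0.44, adjusted p = 0.0765), and kept it in 9 of 23 fits that left out 1 pig.

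Of the other 9 urea cycle and ammonia supply genes tested, which include NAGS (0.03, SE 0.18, adjusted p = 0.932), the maker of the CPS1 activator, none passed. In tyrosine and phenylalanine breakdown 2 of 6 were called, QDPR higher by 0.62 (SE 0.15) and GSTZ1, which acts after HPD, at -0.28 (SE 0.08), which kept its call in 17 of 23 fits that left out 1 pig. Of 9 other genes of tryptophan breakdown, 3 were called. ACMSD (-0.90, SE 0.19, adjusted p = 0.00567) and IDO2 (-0.56, SE 0.13, adjusted p = 0.0104), which opens the same ring as TDO2, were lower, and QPRT, which leads to NAD, was higher by 0.47 (SE 0.14, adjusted p = 0.035). QPRT was 0.19 with the GC correction (adjusted p = 0.19), and kept its call in 10 of 23 fits that left out 1 pig. ACMSD was 1.18 to 3.21 CPM in OO + PFA and 2.36 to 6.76 CPM in PFA livers.

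In branched-chain and lysine breakdown 1 of 20 was called, PPM1K, the phosphatase that activates branched-chain keto acid oxidation, higher by 1.67 (SE 0.26, adjusted p = 0.000247). Among genes of glycine, serine, threonine, histidine and proline 4 of 16 were called, with AGXT at 1.26 (SE 0.24), FTCD at 1.31 (SE 0.36), SHMT2 at 0.45 (SE 0.09) and GLDC of the glycine cleavage system at -0.61 (SE 0.13). With the GC correction FTCD was 0.46 and lost the call (adjusted p = 0.0699), and AGXT was 0.49 and kept it (adjusted p = 0.0108). FTCD also lost the call without OO-102 (adjusted p = 0.0531) or OO-130 (0.054). Among 9 sulfur amino acid genes CSAD, which makes taurine, was higher by 0.75 (SE 0.13), and CTH (-0.42, SE 0.12) and SUOX (-0.51, SE 0.13) were lower. With the GC correction CTH was -0.63 without PFA (adjusted p = 0.00629) and -0.02 with it (adjusted p = 0.967). SUOX was -0.77 (adjusted p = 0.0114) and -0.31 (adjusted p = 0.394) in these pairs. No pathway gene was called for the interaction.

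Of 11 regulators, 3 were called, all higher with oil, and of these only KLF15 kept the call after the GC correction, at 0.44 (adjusted p = 0.0105) in place of 0.72 (adjusted p = 0.00875). CEBPB, a transcription factor that acts on TAT and gluconeogenic genes, was higher by 1.17 (SE 0.19, adjusted p = 0.000451), but by 0.10 with the GC correction (SE 0.20, adjusted p = 0.821). CEBPA was higher by 1.27 (SE 0.40, adjusted p = 0.04), with OO pigs from 2.34 to 45.9 CPM. It was 0.56 with the GC correction (adjusted p = 0.165), and kept its call in 11 of 23 fits that left out 1 pig. KLF15, a regulator of amino acid breakdown in fasting, was 23.3 to 41.7 CPM in control, 20.7 to 47.7 in PFA, 17.6 to 53.1 in OO and 51.8 to 95.5 CPM in OO + PFA livers. KLF15 was higher by 1.33 with PFA (SE 0.24, adjusted p = 0.00346) and differed by 0.10 without it (SE 0.22, adjusted p = 0.829). Its interaction of 1.23 (SE 0.32) did not pass, at an adjusted p of 0.164.

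**Figure D4:**
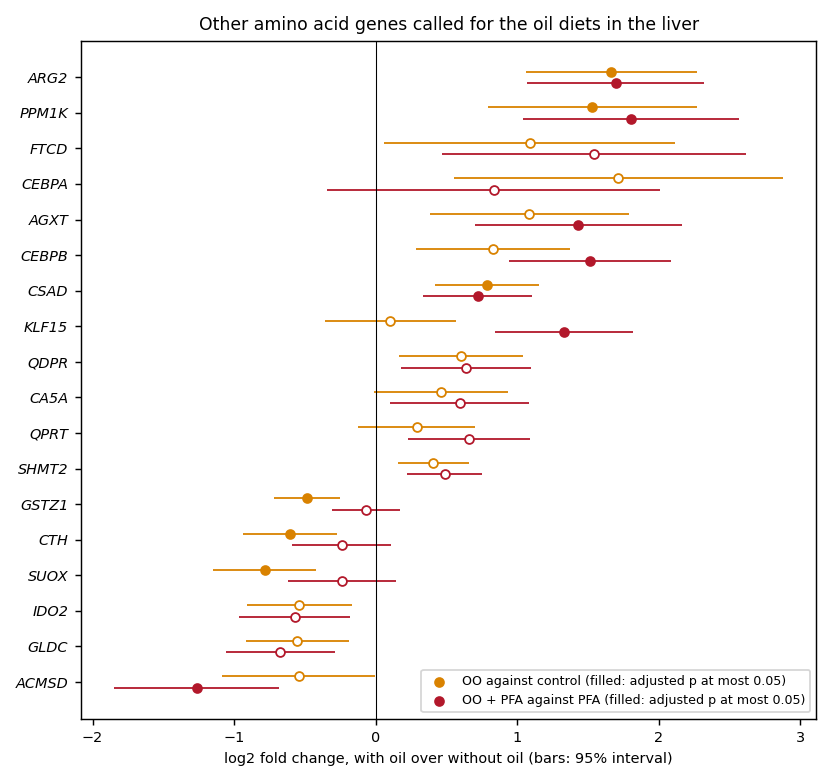
Log2 fold changes for the oil, without PFA (orange) and with PFA (red), of the 18 other amino acid genes called for both oil diets together in the liver, with 95% intervals. ARG2 lies at 1.67 and 1.70 in the pairs, whereas KLF15 lies at 0.10 and 1.33.

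In the ileum 6 of the 9 genes passed the filter on low counts, and HPD, TAT and TDO2 did not. For PFA against control edgeR and DESeq2 called none of the 6 and edgeR none of 14300 genes (0%), with no member at an unadjusted p under 0.05, beside 2.8% of all genes. The differences ran from -0.41 for ASL (SE 0.26) to 0.21 for OTC (SE 0.17), all with an adjusted p of at least 0.991. Per kilobase of exon the order in control ilea was ASS1 (274 ± 120 CPM per kilobase, n = 5), CPS1 (183 ± 46.1) and OTC (116 ± 21.5), whose neighbouring ranges overlapped. ASL (14.8 ± 4.26), ARG1 (0.583 ± 0.132) and GLS2 (0.226 ± 0.0337) lay below them in that order with no overlap.

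Liver and ileum were then compared over the 10 control and PFA pigs that gave both, with libraries of both tissues scaled together. The fit behind the values below had no block for pig, so its tests did not use the pairing. All 9 genes were called higher in liver, beside 37.5% of 14982 genes called higher and 78.1% called in either direction. The tissues were sequenced as separate sets, so set and tissue cannot be told apart. The paper also gives a lower bound of RNA integrity for liver than for ileum, and the part of RNA quality in these differences was not tested. The scaling matters here: TMM factors were 0.537 to 0.755 in liver and 1.39 to 1.58 in ileum. Without them the difference of liver against ileum moved by a median of -1.12 on the log2 scale over the members and the listed pathway genes.

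The urea cycle split into enzymes shared by the tissues and enzymes far higher in liver. CPS1 was 708 to 1736 CPM in liver and 502 to 1228 CPM in ileum, higher in liver in 9 of 10 pigs by 0.68 (SE 0.19, adjusted p = 0.00317). Without scaling CPS1 was instead lower in liver, by -0.45 (adjusted p = 0.0177), with 2 of 10 pigs higher in liver, so its direction rests on the scaling. OTC was higher by 1.89 (SE 0.16) and ASS1 by 1.28 (SE 0.17), and ASS1 without scaling by 0.15 with an adjusted p of 0.387. ASL was higher by 3.67 (SE 0.18), at 132 to 273 CPM in liver and 8.25 to 20.5 CPM in ileum. ARG1 was 170.5 to 336 CPM in liver and 0.633 to 1.39 CPM in ileum, a log2 difference of 8.04 (SE 0.18, adjusted p = 1.64e-19).

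GLS2 was 79.25 to 142 CPM in liver and 0.293 to 0.637 CPM in ileum, higher in liver by 7.69 on the log2 scale (SE 0.14). OAT, which links ornithine to glutamate, was lower in liver by 4.57 (-4.57, SE 0.23). ARG2 was 0.66 higher in liver (SE 0.17, adjusted p = 0.00169) but 0.45 lower without scaling (-0.45, adjusted p = 0.0191). Of the 82 pathway genes, 71 were called higher and 6 lower in liver with scaling, and 61 and 14 without it.

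For the 3 aromatic amino acid enzymes the ileum held almost no counts. Summed over 10 ilea there were 15 counts for TAT, 6 for TDO2 and 1 for HPD, with 2, 5 and 9 libraries at 0. Against the pooled ileum level, TAT in liver was 15190-fold (95% Poisson interval 9211 to 27140), TDO2 45680-fold (20990 to 124500) and HPD 310200-fold (55680 to 12250000). These intervals cover counting error only.

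**Figure D5:**
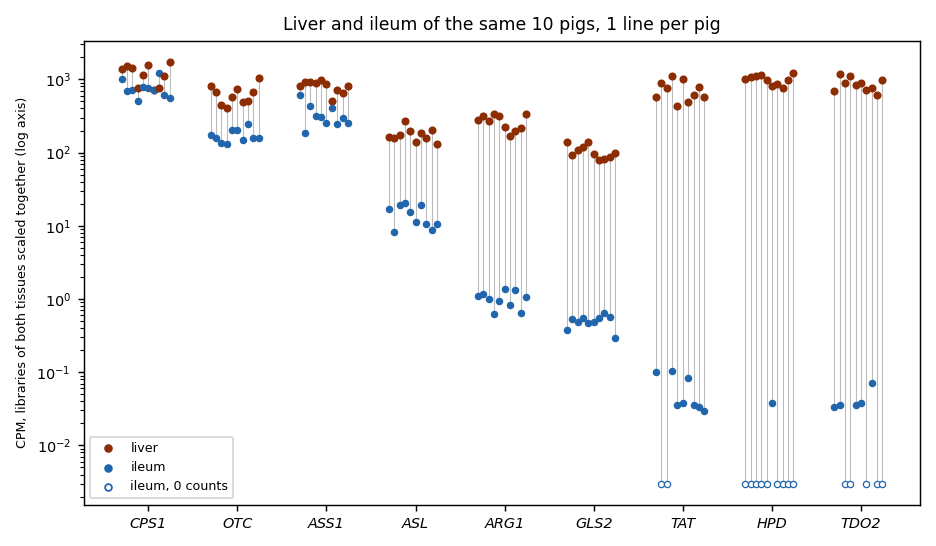
Liver (brown) and ileum (blue) levels of the 9 genes in the same 10 pigs, in CPM with libraries of both tissues scaled together, on a log axis. Each line joins the tissues of 1 pig and open circles mark ilea with 0 counts, drawn at the bottom of the axis. CPS1 overlaps between tissues, whereas ARG1 and GLS2 lie above 79 CPM in every liver and below 1.4 CPM in every ileum.

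The other genes were matched over the 23 livers in the same way. Among the 9, CPS1 was most like OTC (r = 0.574). OTC was most like ALB (0.891) and DCAF6 (0.857), and ASL like RANBP3 (0.879) and RIC8A (0.872) and, among the 9, HPD (0.694). ASS1 was most like STAT5B (0.728) and MPND (0.72), and GLS2 like STKLD1 (0.813) and ACSM5 (0.769), with ASS1 and GLS2 each other's closest of the 9 (0.606). HPD was most like NAXE (0.784) and C11orf52 (0.778), and TDO2 like NMT2 (0.856) and C4BPB (0.821). These correlations describe 23 livers that share diets, depth and GC dependence.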

How the data were processed

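The values were raw counts of read pairs per Ensembl gene, as deposited by the authors. Poly(A) RNA libraries (stranded TruSeq) of 24 livers and 10 ilea were aligned to Sscrofa11.1 with STAR 2.6.1d and counted with HTSeq, per the labels. The annotation release and strand option of the counting are not given in the sources used here. Rows for unassigned pairs, 13.5% to 36.7% of a liver library and 23.3% to 26.1% of an ileum library, were left out. The highest liver share was that of OP-77, which the liver tests did not use. Symbols came from a gene name table (14857 of 25880 genes matched), positions, lengths and GC from RefSeq (13703 genes). Deposited whole-series tables held the same counts.

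Genes were filtered with filterByExpr, scaled by TMM and tested two-sided with the quasi-likelihood test of edgeR 4.0.16 in R 4.3.3, with Benjamini-Hochberg adjustment over all genes kept. One fit held 23 livers by diet (without OO + PFA pig 77), one the 10 ilea, and one the 20 libraries of 10 pigs with both tissues. The tissue fit with a block for pig was an alternative. Same-pig libraries come from the same animal, and their deviations correlated with r from -0.18 to 0.46. Log2 CPM used a prior count of 2. The tests were checked on simulated counts. Alternatives were DESeq2 1.42.0, RLE scaling, no scaling (added after seeing the data), no filter, a GC correction (lowess span 0.5), all 24 livers, a term for title form, fits of 2 diets alone and leaving out each library. Named genes were the 9 members, the pathway genes called across diets or for the oil diets (at most 20), and for each member the 2 genes and the member with the highest Pearson r. Some named genes are not reported here. Members and lists were chosen with earlier results of these data known.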

Additional observations from a re-analysis of the deposited data

Results flagged for a closer look

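In 48 combinations of gene and group, 4 pigs stood far from the others of their group by Dixon's criterion, which chance alone meets in about 1 group of 20. CPS1 was 1390 CPM in the liver of OO-97, with the next OO pig at 755 CPM. ARG1 was 224 CPM in the liver of P-95, with the next PFA pig at 154 CPM. TAT was 2300 CPM in the liver of OP-126, with the next OO + PFA pig at 1309 CPM. ASL was 28.7 CPM in the ileum of P-134, with the next PFA pig at 16.3 CPM.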

How the results depend on the processing

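ARG1 and TAT kept their direction and their calls for OO + PFA against PFA, for both oil diets together and across the 4 diets. This held on leaving out each library of the diets compared and in each other liver fit that did not split the libraries by title form. In these fits ARG1 ranged from 1.29 to 1.66 and TAT from 1.23 to 1.62 on the log2 scale for OO + PFA against PFA. Split by title form both kept their direction, but TAT lost this call among the PigLiv libraries (adjusted p = 0.0923). Among the PL libraries, with 1 OO + PFA pig, ARG1 was 1.27 and TAT 1.25. Across the 4 diets DESeq2 called 4 members (ARG1, TAT, TDO2 and GLS2), the GC correction 4 (ASL, ARG1, TAT and TDO2), and leaving out 1 library 2 to 3, with TDO2 added without OO-97 (adjusted p = 0.0274). For OO against control the count of 1 became 0 without a filter, with all 24 livers or with these 2 diets alone, 3 with the GC correction, and 0 to 1 on leaving out 1 library. For the interaction the count of 0 became 2 with DESeq2 and 1 with the GC correction (ARG1, adjusted p = 0.0305), and stayed 0 on leaving out 1 library. Split by title form, the interaction of ASS1 was 0.45 among the PigLiv and 1.56 among the PL libraries. That of GLS2 was 0.64 and 1.33, and that of ARG1 1.42 and 1.18, in the same order. The PL values rest on 1 OO + PFA pig. For both oil diets ASL joined with the GC correction (-0.44, adjusted p = 0.00504), and TDO2 with DESeq2 (-0.34, adjusted p = 0.0264) and without C-100 (0.0473), P-75 (0.0449) or OO-97 (0.0148). CPS1 in liver against ileum reversed to -0.45 without scaling of library sizes. With the block for pig all 9 members were called for liver against ileum, CPS1 at 0.66 and ASS1 at 1.34, and it changed no call. The share of all genes called in each of these alternative settings is not given here, so their counts cannot be set beside it. The cause of these changes was not tested. With 5 or 6 pigs a diet, differences of the size seen for GLS2, ASS1 and TDO2 lay near the threshold. The pathway genes called numbered 13 to 26 for both oil diets over the libraries left out. Of the 18, the GC correction lost CA5A, QPRT, FTCD, CEBPA and CEBPB.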
